A study of Homo sapiens with 6 samples.

Results

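The genes described here are 40 genes of cholesterol and fatty acid synthesis, among the 34834 genes that had at least 1 transcript in the deposited files. They were listed by name for their place in the pathway, with earlier results of these data known, and all 40 were found. Expression was measured by RNA sequencing in SKOV3, a human ovarian cancer cell line known for extra copies of ERBB2. In 3 samples the cells received 50 nM of an siRNA pool against DNM3OS, a long non-coding RNA, and in 3 control samples 50 nM of a pool of non-targeting (NT) siRNA, all by lipid transfection with RNA taken after 48 h. The cells of both groups therefore carried siRNA and transfection reagent, and no untransfected cells were compared. The labels number the samples 1 to 3 in each group and do not say whether they were separate cultures, so the p-values below measure the spread between these samples, which may be technical.

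Cells make cholesterol from acetyl-CoA. The mevalonate pathway builds isoprenoid units, these are joined into squalene, and squalene is closed into a ring and trimmed stepwise to cholesterol. Fatty acid synthesis starts from the same acetyl-CoA, which is supplied from citrate or acetate, carboxylated to malonyl-CoA and condensed to palmitate, and the product is then elongated, desaturated and activated by coupling to coenzyme A. Many of these genes share one control: when sterols run low, SCAP carries the SREBP transcription factors from the endoplasmic reticulum to the Golgi, where they are cut free to enter the nucleus, and INSIG proteins hold SCAP back when sterols are abundant. Cancer cells often make lipids themselves instead of taking them up.

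Library size was modest, and the gene PLLP alone held 15.7% to 22.2% of the counts on genes. The estimated counts summed to between 1610937 and 1995888 per sample. Those on genes summed to between 1523046 and 1868325, at which 3 counts equal 1.61 to 1.97 CPM (counts scaled to that sum, without further factors). DNM3OS has 6 annotated transcripts and 0 of them were among the transcripts listed in the files, so the knockdown itself was not measured here. Epithelial markers were found at uneven levels in TPM (relative transcript abundance, which accounts for transcript length), and 8 of 9 had a mean above 1 TPM. ERBB2 had 277 ± 67.8 in the knockdown and 355 ± 67.2 in the control (SD, n = 3 each). Only 38.6% of its counts, and 0% of those of KRT18, lay on transcripts without an exon of another gene on the opposite strand. Over all samples KRT19 and KRT18 had means of 70.1 and 69.8 TPM. EPCAM had 19.9, KRT7 16.8, PAX8 14.7, CDH1 11.2 and MUC16 0.023 TPM. All but ERBB2 and KRT8 lay below the immune marker PTPRC, at 80.5 TPM. The summed epithelial markers ranged from 3338 to 6255 TPM in the knockdown and from 3058 to 4435 TPM in the control, but most of this was KRT8, of whose counts 99.75% lay on transcripts over exons of KRT18. Without KRT8 the sums ranged from 290.3 to 563 TPM and from 445 to 733 TPM. Of 5 immune markers, CD79A and CD14 were at 0 counts in every library, while PTPRC had a mean of 85.9 TPM in the knockdown and 75.1 TPM in the control, and the list summed to between 97.6 and 121 TPM and between 96.1 and 110.0 TPM. Of 6 endothelial and fibroblast markers 4 had a mean above 1 TPM, with sums of 73.4 to 91.4 TPM and 59.5 to 79.9 TPM. The percentage of counts that 87 ribosomal protein genes held differed more than 2-fold between libraries, at 0.233%, 0.387% and 0.400% in knockdown replicates 1 to 3 and 0.547%, 0.322% and 0.528% in control replicates 1 to 3, and control replicate 1 stood apart for the lipid genes, as described further on.

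The lipid genes ranged in level from 1.21 TPM for PMVK to 290 TPM for NPC1 (means over the 6 samples), with a median of 17.0 TPM. NPC1, the late endosomal protein that passes cholesterol out of lysosomes, FADS1 and ACAT2 lay at or above 100 TPM. Another 20 genes lay between 10 and 100 TPM, and 17 lay below 10 TPM.

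In the mevalonate pathway, ACAT2, the cytosolic thiolase that joins acetyl-CoA units, had 149 ± 48.7 TPM in the knockdown and 155 ± 7.89 TPM in the control (SD, n = 3 each, as throughout). MVK, mevalonate kinase, had 77.2 ± 11.5 and 93.7 ± 27.4 TPM. FDPS, HMGCS1 and IDI1, which make farnesyl diphosphate, HMG-CoA and dimethylallyl diphosphate, had means over all samples of 48.4, 37.4 and 26.5 TPM. The neighbouring steps MVD and PMVK were far lower, at 9.0 and 1.21 TPM. Of the 7 genes listed for this pathway, these 2 are the only ones without an exon over an exon of a gene on the opposite strand. Reads of opposite genes may add to the other levels, as described below, and their part in this difference was not tested. From squalene to cholesterol, HSD17B7 had the highest level at 43.9 TPM and NSDHL the lowest at 2.07 TPM, with CYP51A1, the lanosterol demethylase, at 24.4 TPM and SQLE, the squalene epoxidase, at 16.6 TPM. Among the sterol sensors SREBF1 had 43.1 TPM, SCAP 26.6 TPM, INSIG1 12.3 TPM, SREBF2 5.22 TPM and INSIG2 1.84 TPM. In fatty acid synthesis ACSS2, which makes acetyl-CoA from acetate, had 84.2 TPM and ACLY, which makes it from citrate, 26.7 TPM. ACACA, which makes malonyl-CoA, had 22.8 TPM and FASN, the fatty acid synthase, only 3.18 TPM. The desaturases FADS1 and FADS2 had 155 and 88.8 TPM, whereas SCD, the stearoyl-CoA desaturase, had 5.84 TPM. Transcript length bears on this contrast: FADS2-205 of 469 bases had 31.0 to 92.2 TPM on 32.3% of the FADS2 counts. All SCD counts lay on a transcript of 5362 bases. Summed over all libraries, FADS2 had 435 counts and SCD 221. The acyl-CoA synthetases ACSL3, ACSL1 and ACSL4 had 13.8, 8.49 and 5.12 TPM.

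**Figure D1:**
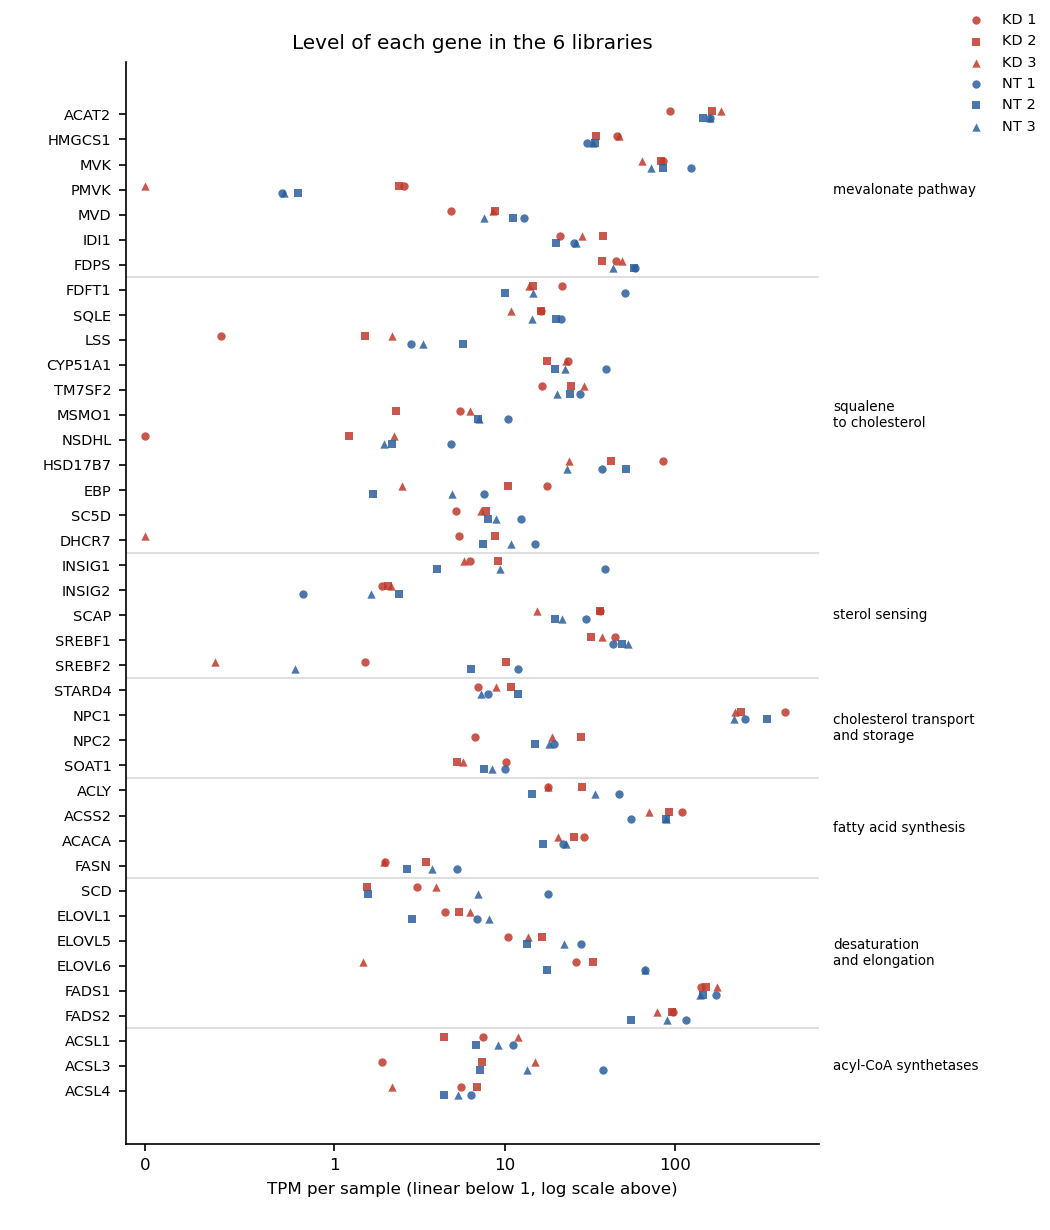
Level of each of the 40 genes in TPM (horizontal axis, linear below 1 and logarithmic above), grouped by role, with one point per library (red, DNM3OS knockdown replicates 1 to 3; blue, non-targeting replicates 1 to 3). NPC1 is highest with a mean of 290 TPM and PMVK lowest with 1.21 TPM, and for INSIG1, FDFT1, SCD and ACSL3 the circle of control replicate 1 stands to the right of the other points.

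These levels rested on different kinds of transcript. For 14 of the 40 genes more than 50% of the counts lay on transcripts annotated as something other than protein-coding, such as retained introns or transcripts without a defined reading frame. For HSD17B7 this share was 99.6%, for INSIG2 100% and for ACSS2 93.3%. The most abundant ACSS2 transcript was one of 580 bases without a defined reading frame, which held 26.3% of the counts. By contrast, SCD has 1 transcript, which is protein-coding and held all 221 counts, and 93.9% of the FASN counts lay on its protein-coding transcript of 8560 bases. In the whole files 17.98% of transcripts overlap an exon of another gene on the opposite strand, and these held between 52.8% and 61.4% of the counts on genes. The share was 52.6% for the lipid genes together. The library kit marks strand, but the strand setting of the counting is not given in the sources used here, so counts of such transcripts may include reads of the opposite gene. All 2025 counts of ACAT2 (chr6:159762045-159779112, plus strand, GRCh38) lay on transcripts that overlap exons of SOD2 or TCP1, of which TCP1 had 406 TPM. FADS1 and FADS2 overlap on opposite strands of chromosome 11 and share 490 bases of exon, MVK overlaps MMAB, and NPC1 (chr18:23506184-23586506, minus strand) overlaps RMC1, which had 217 TPM. The 21 lipid genes without such an overlap had a median of 7.96 TPM and the 19 with one a median of 26.7 TPM. Whether opposite-strand reads contribute to this was not tested.

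**Figure D2:**
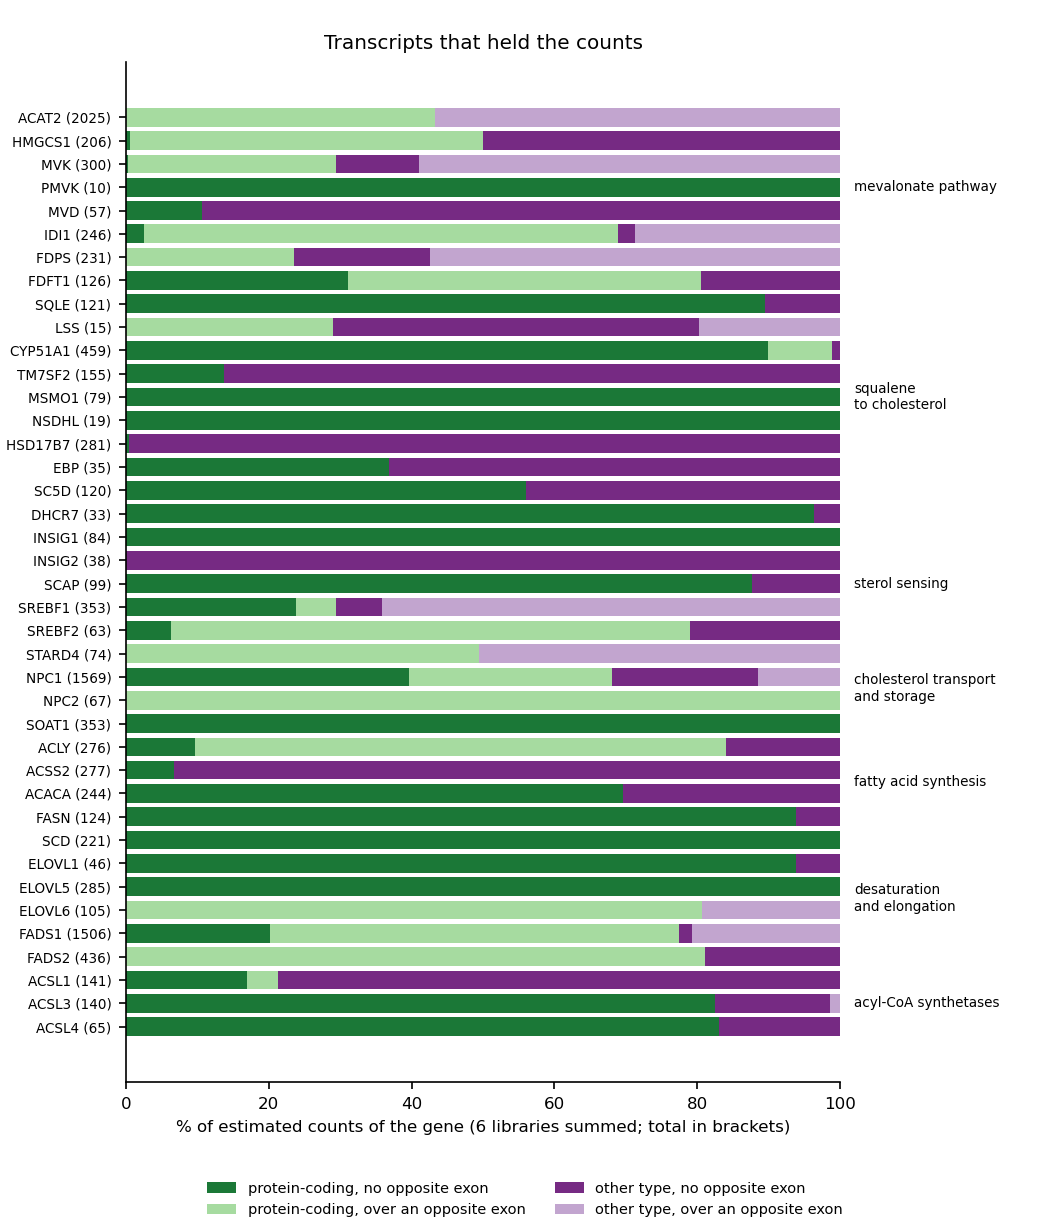
Share of the estimated counts of each gene (horizontal axis, percent of the counts of the gene summed over the 6 libraries, total in brackets) on protein-coding transcripts (green) and other types (purple), with the lighter shade for transcripts that overlap an exon of another gene on the opposite strand. SCD, ELOVL5 and SOAT1 are dark green throughout, ACAT2 holds light shades only, and HSD17B7, INSIG2 and ACSS2 are almost entirely dark purple.

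Promoter sequences of RefSeq (build GRCh38.p14, from 250 bases before to 50 bases after a RefSeq transcript start, which need not be the outer end of the gene in GENCODE) were at hand for 36 of the 40 genes. The letters TCACNCCAC, a form of the sterol regulatory element bound by SREBPs, were searched on both strands and found in 1 of the 36, or 2.78%, against 1.15% of 27305 promoters. CCAAT, the core bound by NF-Y, a factor known to work beside SREBPs, was found on either strand in 23 of the 36, or 63.9%, against 35.7% of all promoters. The most matches in one promoter were 5, in MVK and in NSDHL. A match is only a match of letters and shows no binding, and these shares are descriptions without a test. The stretches below are those of the only gene with the sterol element and of 4 genes whose expression values are given in full further on. Those of ACLY and ACSS2 lie within the genes as GENCODE draws them, outside any annotated exon, and that of SREBF2 overlaps an exon of the antisense RNA SREBF2-AS1. They read 5′ to 3′ along the strand of the gene, with the match in capitals, where ATTGG is CCAAT on the other strand.
SREBF2, chr22:41832956-41832996, plus strand: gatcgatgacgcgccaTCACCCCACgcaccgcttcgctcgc
SCD, chr10:100346988-100347024, plus strand: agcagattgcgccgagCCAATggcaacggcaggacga
SCD, chr10:100347031-100347067, plus strand: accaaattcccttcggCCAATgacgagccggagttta
ACLY, chr17:41919067-41919103, minus strand: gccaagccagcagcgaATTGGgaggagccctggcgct
ACLY, chr17:41919025-41919061, minus strand: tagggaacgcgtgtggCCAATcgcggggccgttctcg
ACSS2, chr20:34874850-34874886, plus strand: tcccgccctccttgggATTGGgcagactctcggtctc
INSIG1, chr7:155297692-155297728, plus strand: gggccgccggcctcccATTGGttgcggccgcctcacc

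To ask whether DNM3OS knockdown changed these genes, the 2 groups were compared. No lipid gene reached a 2-fold difference together with an adjusted p below 0.05. Most tested genes lay somewhat lower in the knockdown, and the lowest fold changes were those of SCD, ACSL3, ACLY and FDFT1. In SCD, ACSL3 and ACLY, which handle fatty acids, control replicate 2 lay below at least 2 of the 3 knockdown libraries. Of the 40 genes, 30 had enough counts to be tested, beside 11814 genes in all. Among them 0 were called lower and 0 higher, where the whole comparison called 0.00846% of genes lower (1 gene) and 0% higher. Every adjusted p of a lipid gene was 1 (edgeR's exact test with Benjamini-Hochberg adjustment over all genes). At an unadjusted p below 0.05, 3 of the 30 (10%) were lower and 0 were higher, against 1.91% and 1.01% of all tested genes. The 3 knockdown libraries all lay below the 3 controls in 0 genes and all above them in 1, ACSS2, against 3.56% and 4.42% of all tested genes. The log2 fold change was below 0 in 22 of the 30 and above 0 in 8, with a median of -0.21, while 49.4% of all tested genes lay below 0 and their median was 0.0042. Because the list was chosen with earlier results of these data known, these shares are descriptions and received no set test. In bulk RNA, fewer cells that express a gene and less of its RNA per cell cannot be told apart.

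**Figure D3:**
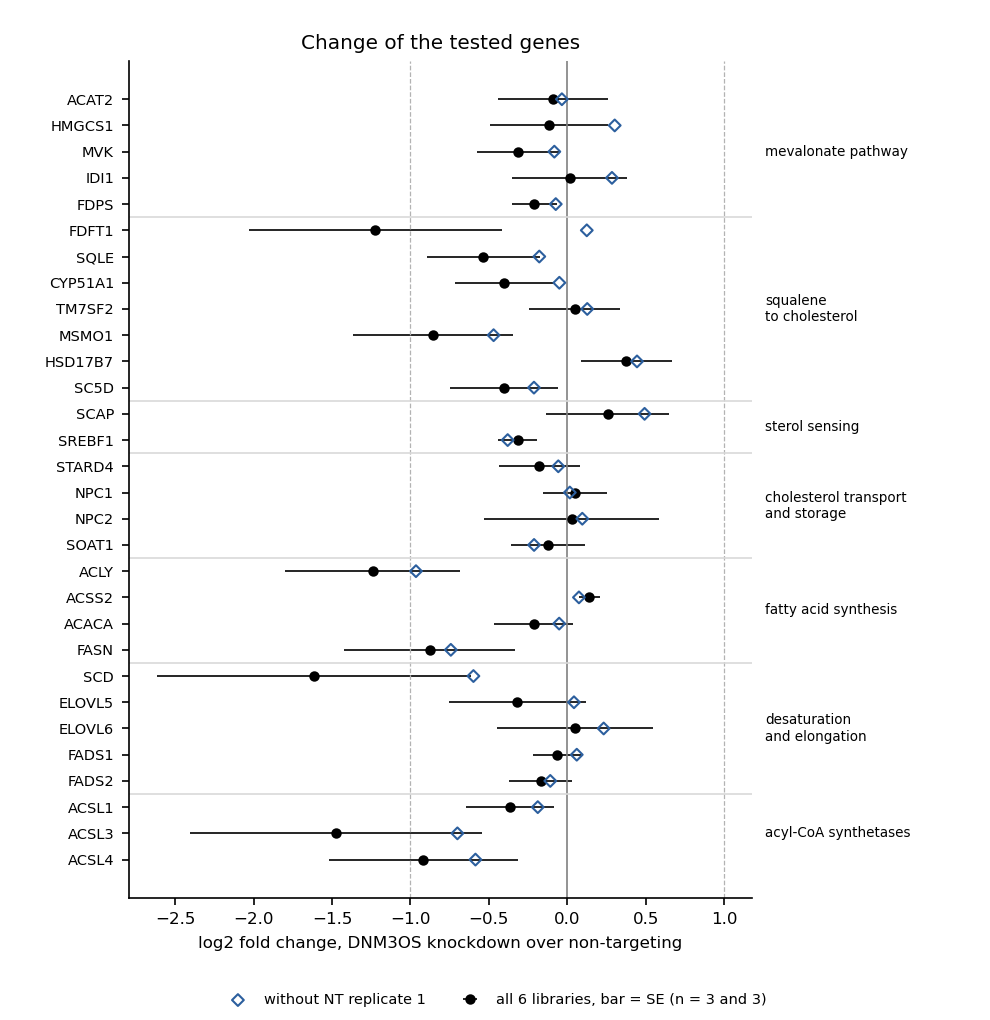
log2 fold change (knockdown over non-targeting) of the 30 tested genes, grouped by role. Filled circles are the fit of all 6 libraries with bars of 1 SE (n = 3 each), open diamonds the fit without control replicate 1, and dashed lines mark 2-fold. SCD, ACSL3, ACLY and FDFT1 lie furthest left, with SCD at -1.61, and move towards 0 without that library, FDFT1 to 0.12.

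Fatty acid synthesis held the lipid gene with the smallest p. ACLY (chr17:41866917-41930542, minus strand) had 9.30, 20.9 and 19.6 CPM in knockdown replicates 1 to 3 and 52.4, 19.0 and 44.7 CPM in control replicates 1 to 3 (CPM here and below is scaled by the edgeR TMM factors). Control replicates 1 and 3 were higher than every knockdown library, and control replicate 2 lay among them. The log2 fold change was -1.24 (SE 0.557), with an unadjusted p of 0.00447 by edgeR's exact test and an exact permutation p of 0.3 (two-sided; 3 against 3 cannot go below 0.1). FASN showed the same split of the controls, with 6.98, 7.43 and 11.9 CPM in the knockdown and 18.8, 6.55 and 22.4 CPM in the control, and a log2 fold change of -0.88 (SE 0.545). ACACA had a log2 fold change of -0.21 (SE 0.253). ACSS2 (chr20:34872146-34927962, plus strand), the alternative source of acetyl-CoA, was the 1 gene whose groups did not overlap, with 29.8, 28.4 and 28.1 CPM in the knockdown and 23.9, 26.8 and 27.6 CPM in the control. The gap was small: the log2 fold change was 0.14 (SE 0.0658), with an unadjusted p of 0.608 by edgeR's exact test and an exact permutation p of 0.1, the smallest possible. In TPM the ACSS2 libraries did overlap, at 110.6, 91.9 and 70.3 in the knockdown and 55.5, 88.9 and 88.2 in the control.

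Among the desaturases and elongases, SCD (chr10:100347233-100364826, plus strand), which puts the first double bond into saturated fatty acids, had the lowest fold change of all lipid genes. Its values were 10.2, 6.08 and 15.4 CPM in the knockdown and 65.5, 5.89 and 25.9 CPM in the control. The lowest and the highest of the 6 values were both controls, and control replicate 1 alone lay far above the rest. The log2 fold change was -1.61 (SE 1.001), with an unadjusted p of 0.0196 by edgeR's exact test and an exact permutation p of 0.4. FADS1 (131, 149.9 and 161 CPM against 181, 134 and 147 CPM) had a log2 fold change of -0.07 (SE 0.153). FADS2 (34.0, 51.3 and 38.6 CPM against 50.1, 39.3 and 48.8 CPM) had one of -0.17 (SE 0.203). These delta-5 and delta-6 desaturases of polyunsaturated fatty acids thus differed by less than about 1 SE. Among the elongases ELOVL5, which acts on polyunsaturated chains, had -0.32 (SE 0.435) and ELOVL6, which extends palmitate, 0.05 (SE 0.498). ELOVL1 was not tested, with 1.86 to 7.65 CPM.

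All 3 acyl-CoA synthetases had log2 fold changes below 0. ACSL3 (chr2:222860942-222944639, plus strand), which activates fatty acids at the endoplasmic reticulum and lipid droplets, had 1.40, 9.46 and 11.9 CPM in the knockdown and 38.2, 9.17 and 14.7 CPM in the control. Knockdown replicate 1 was at 3 counts and control replicate 1 at 67, while the other 4 libraries lay between 14 and 25 counts. The log2 fold change was -1.48 (SE 0.929), with an unadjusted p of 0.0395 by edgeR's exact test and an exact permutation p of 0.3. ACSL4, which prefers arachidonic acid, had -0.92 (SE 0.604) and ACSL1 -0.37 (SE 0.280).

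In gene sums the mevalonate pathway stayed nearer to 0, with a median log2 fold change of -0.12 over the 5 tested genes. Each overlaps an opposite exon. Transcripts without such overlap held 0% of counts for ACAT2, 4.88% for IDI1, 11.7% for MVK, 19.5% for FDPS and 51.0% for HMGCS1. The protein-coding HMGCS1-202 had 8.92, 15.6 and 12.1 counts in the knockdown and 46, 4.80 and 14.4 in the control. The retained intron HMGCS1-205 had 24.7, 13.2 and 20.3 against 10.4, 15.4 and 13.5. Whether opposite-strand reads contribute to these sums was not tested. ACAT2 had 118, 234 and 251 CPM in the knockdown and 232, 202 and 207 CPM in the control, so that the lowest and the highest library were both knockdown libraries, and its log2 fold change was -0.09 (SE 0.350). MVK had 26.5, 31.7 and 21.1 CPM against 42.7, 29.5 and 26.5 CPM and a log2 fold change of -0.32 (SE 0.260). HMGCS1, which makes the precursor of mevalonate, had -0.12 (SE 0.377), FDPS -0.21 (SE 0.145) and IDI1 0.01 (SE 0.369). MVD and PMVK, with 3.72 to 8.82 CPM and 0 to 2.03 CPM, were not tested.

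From squalene to cholesterol, 5 of the 7 tested genes had log2 fold changes below 0, with a median of -0.41. FDFT1, which joins farnesyl units into squalene, had 8.84, 6.08 and 7.02 CPM in the knockdown and 38.2, 5.24 and 8.24 CPM in the control, and a log2 fold change of -1.22 (SE 0.807). The difference of its means came from control replicate 1, and without that library the log2 fold change was 0.12. MSMO1, a sterol C4 demethylase, had -0.86 (SE 0.509), SQLE -0.54 (SE 0.360), CYP51A1 -0.41 (SE 0.313) and SC5D, which sets a late ring double bond, -0.40 (SE 0.343). HSD17B7, the sterol 3-ketoreductase, had the highest log2 fold change of the tested genes, 0.38 (SE 0.289), from 41.9, 28.4 and 21.8 CPM in the knockdown and 26.2, 25.5 and 20 CPM in the control. Knockdown replicate 1 alone lay well above the rest, and as given above nearly all its counts were on transcripts that are not protein-coding. TM7SF2, a sterol reductase, had 0.05 (SE 0.292). LSS, NSDHL, EBP and DHCR7 were not tested, and their libraries held 0 to 13 counts each.

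Of the sterol sensors, SCAP and SREBF1 could be tested. SCAP had 12.1, 13.5 and 5.61 CPM in the knockdown and 11.4, 7.20 and 7.65 CPM in the control, with a log2 fold change of 0.26 (SE 0.394), and the knockdown libraries held both the highest and the lowest value. SREBF1, which encodes SREBP-1, had 29.3, 29.0 and 36.5 CPM against 35.9, 39.3 and 42.4 CPM, a log2 fold change of -0.32 (SE 0.124) in which knockdown replicate 3 overlapped control replicate 1. SREBF1, INSIG1, itself a known SREBP target, FDFT1 and FASN are given with all values although they were chosen after their values were seen. INSIG1 (chr7:155297776-155310235, plus strand) had 3.72, 6.08 and 4.21 CPM in the knockdown and 27.3, 3.27 and 4.71 CPM in the control. It was left untested since only control replicate 1, with 48 counts, lay above 9 counts. INSIG2 lay at 1.14 to 5.24 CPM and SREBF2 at 1.40 to 14.8 CPM, without a test. The genes of cholesterol transport and storage had a median log2 fold change of -0.05: NPC1 (191, 149 and 131 CPM against 146, 179 and 131 CPM) had 0.05 (SE 0.206), its luminal partner NPC2 0.03 (SE 0.558), the sterol carrier STARD4 -0.18 (SE 0.259) and SOAT1, which esterifies cholesterol, -0.12 (SE 0.234).

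**Figure D4:**
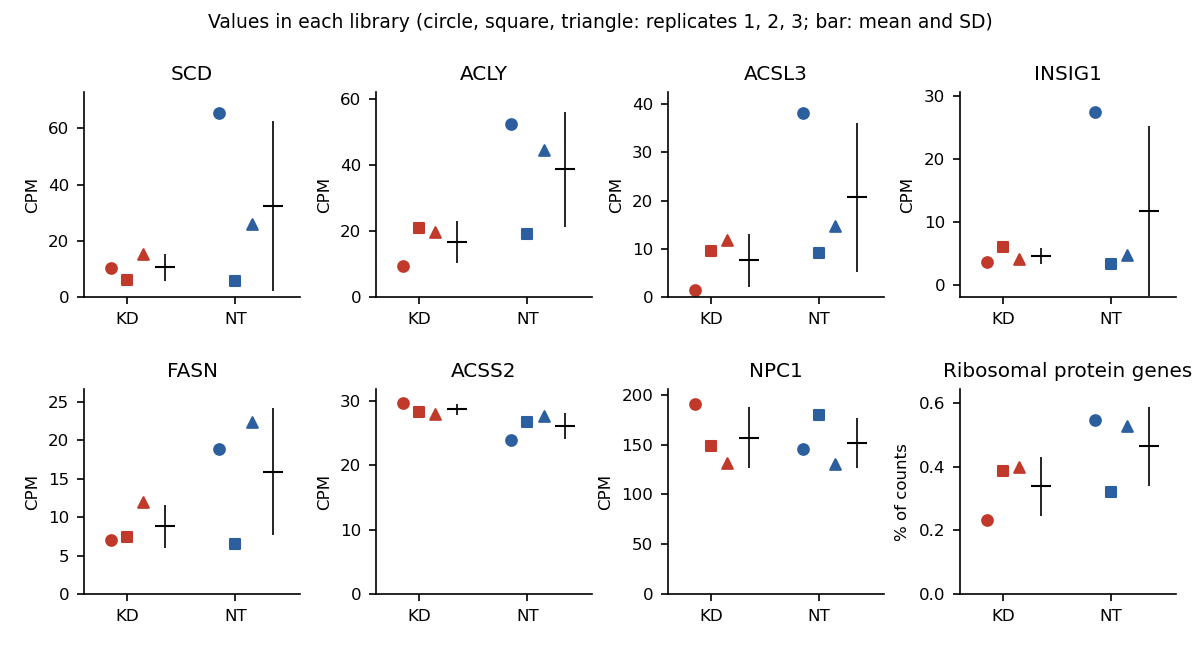
Values of 7 lipid genes in CPM (vertical axes, linear) and the percentage of counts held by 87 ribosomal protein genes, in each library (red, knockdown; blue, non-targeting; circle, square and triangle for replicates 1, 2 and 3; bars, mean and SD, n = 3). In SCD, ACSL3 and INSIG1 the blue circle of control replicate 1 stands alone (65.5, 38.2 and 27.3 CPM), while in ACSS2 and NPC1 it does not.

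For many of these genes the control libraries differed among themselves. Control replicate 1 was the highest of the 6 libraries for 21 of the 40 genes, and for 17 of the 30 tested (56.7%), where it was the highest for 19.8% of all tested genes. Of the other libraries, none was the highest for more than 5 of the 40. Knockdown replicate 1 was the lowest for 13, although among all tested genes it was the library that was most often highest, at 28.0%. It was also the library that differed most from its own group over all genes with enough counts. The chi-square per degree of freedom, which measures how far the counts of a pair of libraries differ beyond their totals, was 13.1 and 13.7 against knockdown replicates 2 and 3. It was 2.44 between those 2 and 2.27 to 5.16 between controls. The summed level of the 40 genes was 922, 1098 and 1061 CPM in knockdown replicates 1 to 3 and 1444.5, 999 and 1115 CPM in control replicates 1 to 3, so 2 controls lay within or near the knockdown range and 1 above it. Control replicate 1 exceeded control replicate 2 in 32 of the 40 genes, by more than 2-fold in 19, and control replicate 3 exceeded control replicate 2 in 31. The 3 controls ranked in the same order by their ribosomal protein share (0.547%, 0.528% and 0.322% for replicates 1, 3 and 2) as by these summed levels, and of the knockdown libraries replicate 1 was the lowest by both. Of the 9 epithelial markers 3, ERBB2, KRT19 and PAX8, were highest in control replicate 1 as well and 6 in another library. The part of these differences between libraries in the values of the lipid genes was not tested beyond the fits given next.

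Without control replicate 1, 18 of 30 tested lipid genes had a log2 fold change below 0 and 12 above, and the median was -0.05. ACLY had -0.96, ACSL3 -0.70 and SCD -0.60, and 1 gene, ACLY, had an unadjusted p below 0.05 in edgeR's exact test. The share of all tested genes at that p is given only for the main comparison, so this count has no background beside it. Without control replicate 2 the picture moved the other way: 28 of 33 tested genes lay below 0, the median was -0.38, and 11 genes lay wholly below the 2 remaining controls, where 14.99% of all tested genes did. These were MVD, SQLE, MSMO1, ACLY, ACACA, FASN, SCD, ELOVL1, ACSL1, ACSL3 and ACSL4. MVD and ELOVL1, untested with all libraries, passed the count filter here only through the 2 remaining controls. MVD had 14 and 15 counts in these against 8, 7 and 6 in the knockdown, and ELOVL1 11 and 13 against 4, 8 and 6. For these genes, lying below the controls was close to fixed in advance by the filter. The smallest adjusted p of that fit was 0.0596 by edgeR's exact test, for SCD at -2.10 and ACLY at -1.57, and still 0 genes were called. With the ribosomal protein share as a covariate the median was -0.0088 and 16 of 30 lay below 0. In edgeR's quasi-likelihood test of that fit 0 lipid genes had an unadjusted p below 0.05. SCD then had a log2 fold change of -0.13, ACSL3 -0.22 and ACLY -0.35. This covariate was added after the data were seen. It ran from 0.233% to 0.400% in the knockdown and from 0.322% to 0.547% in the control, so the fit cannot cleanly separate it from the group.

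**Figure D5:**
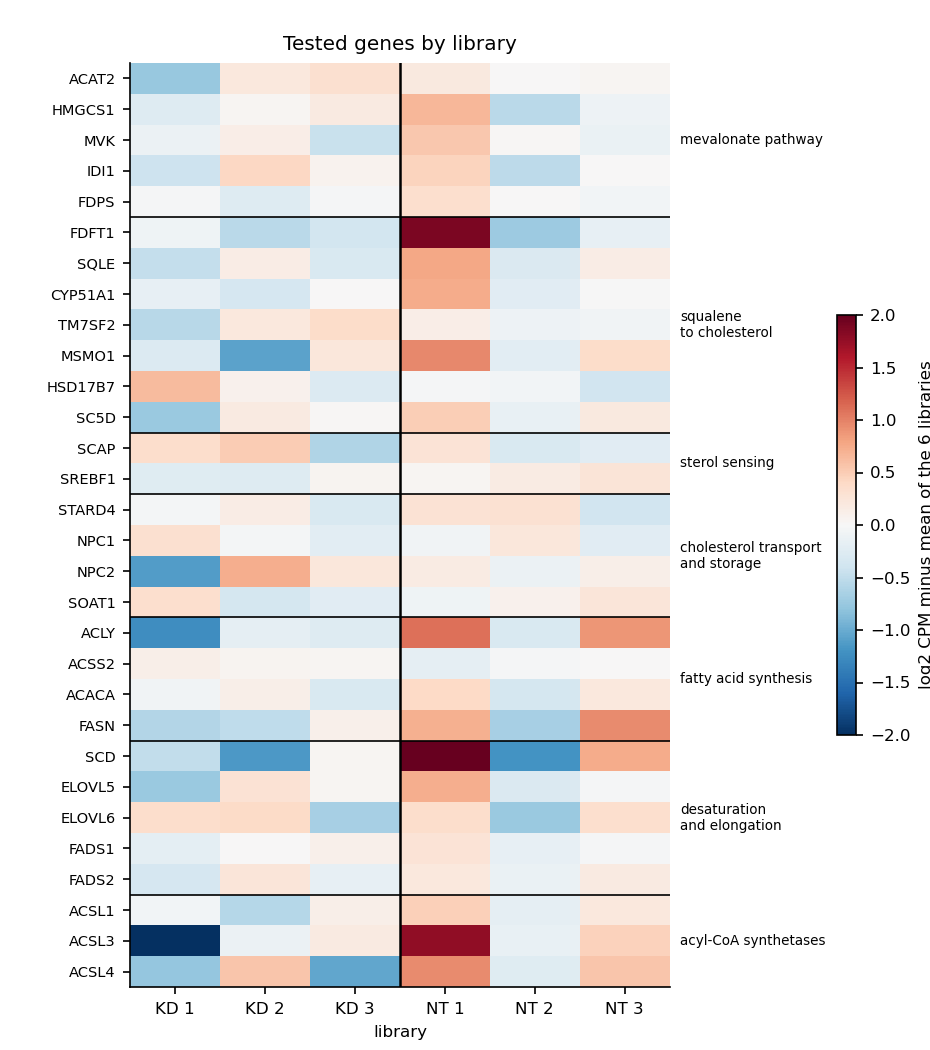
log2 CPM of the 30 tested genes in each library minus the mean of the 6 libraries (colour, limited to 2 on either side), grouped by role. The column of control replicate 1 is the reddest, deepest in SCD, FDFT1 and ACSL3, and is the highest of the 6 for 17 of the 30 genes, while control replicate 2 is blue for SCD and FDFT1.

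The genes were also divided by the kind of transcript that held their counts. In 15 genes more than 80% of the counts lay on protein-coding transcripts without an opposite exon: PMVK, SQLE, CYP51A1, MSMO1, NSDHL, DHCR7, INSIG1, SCAP, SOAT1, FASN, SCD, ELOVL1, ELOVL5, ACSL3 and ACSL4. Control replicate 1 was highest in 10 of these 15 and in 11 of the other 25, and the log2 fold change was below 0 in 9 of the 10 tested and in 13 of the other 20 tested. The 80% cut was not among the planned comparisons, and the shares for all genes of the same kind are not given. The 15 include genes too low to test, such as PMVK and NSDHL with 10 and 19 counts over all libraries. With all transcripts that overlap an opposite exon left out, 22 lipid genes could be tested, 0 were called, 16 lay below 0 and the median was -0.30. ACLY, of whose counts 74.4% lay on protein-coding transcripts over an opposite exon, then had a log2 fold change of -0.27 in place of -1.24, while SCD had -1.65 and ACSL3 -1.47. SREBF1, SCD and ACSL3 had an unadjusted p below 0.05 by edgeR's exact test, with no share of all genes of that fit at that p to set beside them. CYP51A1 and SREBF1 lay wholly below the controls and ACSS2 wholly above, where 3.88% and 4.43% of all genes tested in that fit did.

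Genes of neighbouring lipid pathways, 62 in 5 lists, showed 0 calls among 48 tested, with a median log2 fold change of -0.08. By list, the log2 fold change was below 0 in 5 of 9 tested genes of SREBP processing and sterol response, 4 of 8 of sterol export and uptake, 4 of 9 of the elongation cycle and malonyl-CoA, 5 of 8 of triglyceride synthesis and lipid droplets, and 9 of 14 of fatty acid oxidation. One gene had an unadjusted p below 0.05 (0.0039 by edgeR's exact test): ELOVL7, an elongase of saturated and polyunsaturated chains, with 2.79, 2.70 and 4.91 CPM in the knockdown and 6.84, 12.4 and 9.41 CPM in the control and a log2 fold change of -1.47 (SE 0.305). Its knockdown libraries lay wholly below the controls, as did those of HADHB, a subunit of the mitochondrial trifunctional protein of fatty acid oxidation, at -0.48 (SE 0.164). Those of RNF139, an endoplasmic reticulum ubiquitin ligase, at 0.48 (SE 0.159), and of ACACB, the mitochondrial counterpart of ACACA, at 0.37 (SE 0.141), lay wholly above. ELOVL7 reached the minimum count of 10 for testing only in the controls, with 6, 4 and 7 counts in the knockdown and 12, 19 and 16 in the control. Its entry to the test thus already required high controls, and its p and its separation carry that limit. HADHB lay near the minimum, with 10, 10 and 8 counts against 16, 11 and 12. Only 5.47% of the 128 RNF139 counts lay on transcripts that do not overlap an exon of TATDN1 on the opposite strand, while ELOVL7, HADHB and ACACB have no such overlap. These 2 lower and 2 higher genes among 48 stand beside the shares of 3.56% and 4.42% among all tested genes given above. ACACA and ACACB, which make malonyl-CoA for synthesis and for the control of oxidation, thus had log2 fold changes of -0.21 and 0.37, neither of them called.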

How the data were processed

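SKOV3 RNA was sequenced from 3 DNM3OS siRNA and 3 non-targeting siRNA samples, grouped by their labels. The authors quantified paired reads with kallisto 0.43.0 (submitters' processing notes) against GRCh38 transcripts and deposited, per transcript, an estimated count without normalization and a TPM. Of 173259 transcripts, 155518 matched GENCODE 44 and held 93.6% to 95.2% of counts. Estimated counts were summed per gene, rounded, filtered with filterByExpr (minimum count 10), TMM-normalized and tested with the exact test of edgeR 4.0.16 (R 4.3.3) over 11814 genes, with Benjamini-Hochberg adjustment. A call needed at least 2-fold and an adjusted p below 0.05. Standard errors come from log2 CPM (prior count 2). Overlap with opposite exons was computed with bedtools 2.31.1. Members and lists were chosen with earlier results of these data known. By rule, full values go to genes called, with groups that do not overlap, with the 3 largest decreases or increases, or among the 5 highest TPM. Alternatives included DESeq2 1.42.0, and scripts were tested on simulated data.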

Additional observations from a re-analysis of the deposited data

How the results depend on the processing

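No lipid gene was called in either direction under any of the 19 alternatives run, and the smallest adjusted p of a lipid gene under any of them was 0.0596. The fold changes of the 11 genes named by rule kept their direction in 170 of 185 values and reversed in 15. For the counts of lipid genes at an unadjusted p below 0.05 that follow, the share of all tested genes is not given. These counts therefore cannot be set against the background of their own fit. With length-scaled TPM counts the number of lipid genes at an unadjusted p below 0.05 and lower in the knockdown was 1, 2 genes lay wholly below the controls (4.03% of all tested genes), ACLY had a log2 fold change of -0.56, and FADS1 and FADS2 had log2 fold changes of 0.030 and 0.040. Without transcripts that overlap an opposite exon, 2 genes lay wholly below (3.88% of all tested genes) and ACLY had -0.27. A pair of alternatives was added after seeing the data. With the ribosomal protein share as a covariate (edgeR's quasi-likelihood test) 0 genes were lower at an unadjusted p below 0.05, and the median was -0.0088. NPC1, FADS1, ACAT2 and FADS2 had -0.22, 0.13, 0.18 and 0.073 in that fit, while SCD, ACSL3 and ACLY had -0.13, -0.22 and -0.35. With both libraries numbered 1 left out 0 were lower at that p, 2 genes lay wholly below and 8 wholly above the controls (13.5% and 15.7% of all tested genes), the same 4 genes had -0.14, 0.15, 0.25 and 0.034, and SCD, ACSL3 and ACLY had -0.57, -0.16 and -0.65. With 1 library left out at a time, genes lower at an unadjusted p below 0.05 numbered 1 to 6, genes wholly below the controls 1 to 11 (6.02% to 14.99% of all tested genes) and wholly above 1 to 4 (6.73% to 12.8%), and the median ran from -0.38 to -0.05. The 11 genes wholly below include MVD and ELOVL1, with the limit given above. Over the fits with 1 library left out NPC1 ran from -0.11 to 0.19, FADS1 from -0.15 to 0.061, ACAT2 from -0.29 to 0.19, SCD from -2.10 to -0.60, ACLY from -1.57 to -0.92 and ACSL3 from -1.99 to -0.70. NPC1 changed sign without knockdown replicate 1 (-0.11) and without control replicate 3 (-0.06), FADS1 without knockdown replicate 1 (0.03) and control replicate 1 (0.061), and ACAT2 without knockdown replicate 1 (0.19). The cause of these changes was not tested. With the replicate number as a replicate block 0 genes were called and the median was -0.20 (-0.21 in the quasi-likelihood fit without it). Deviations of same-numbered samples correlated at -0.40 to 0.23 and those of other pairs at -0.41 to 0.53. With so few samples centred per group these values depend on one another. They cannot show whether same-numbered samples were handled together, and the labels do not say. Depth limits the 10 untested genes, of which 9 never exceeded 26 counts in a library.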

Other observations

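In 6 of the 30 tested genes the mean TPM and the log2 fold change from counts differed in sign: HMGCS1, TM7SF2, ACACA, ELOVL6, FADS1 and FADS2. ELOVL6 showed it most. Its counts gave a log2 fold change of 0.05, while its mean was 20.3 TPM in the knockdown and 50.4 TPM in the control. A transcript of 204 bases without a defined reading frame, ELOVL6-207, held 13.9% of its counts and at most 5 estimated counts in any library, yet 20.8, 28.6 and 0 TPM in knockdown replicates 1 to 3 and 59.8, 14.6 and 64.4 TPM in control replicates 1 to 3. The protein-coding ELOVL6-202 of 6454 bases held 78.7% of the counts and 0.901 to 2.74 TPM.

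For ACLY the protein-coding transcript ACLY-201 of 4339 bases had 21.2 and 33.0 estimated counts in control replicates 1 and 3 and under 0.01 in each of the other 4 libraries, and ACLY-207, which differs little in length, had 36.9 counts in control replicate 1 and 0 in control replicate 3. Assignment between such similar transcripts is an estimate, so values are given per gene.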
